A study of [Candida] boidinii with 12 samples.

Results

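LA001-14, a lactate dehydrogenase strain of the yeast Candida boidinii, was set against its wild-type parent, both on methanol. The comparison used 3 LA001-14 libraries and 3 wild-type (WT) libraries out of the 12 libraries of the series, chosen by their labels and not by any measured value, and it covered all 5712 rows of the count tables. WT is strain CICC#33029. LA001-14 is WT with a lactate dehydrogenase cassette, labelled PENO1-BtL-LDH-TTEF2, and a kanamycin resistance cassette, labelled PTDH3-KanR-TTEF2, both placed at random chromosomal loci. All 6 libraries are from cells in YPM medium with 2% (w/v) methanol for 6 h. The other 6 libraries come from the same strains on glucose (YPD medium, 2% w/v, 6 h), and they are used here to show where the same genes stood on a different carbon source. LA001-14 is a single engineered strain, so both cassettes, their insertion sites and any further change acquired during its construction cannot be told apart in these data.

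Candida boidinii is a methylotrophic yeast. In such yeasts methanol is oxidised to formaldehyde by alcohol oxidase inside peroxisomes, formaldehyde is fixed into sugar phosphates by dihydroxyacetone synthase, and the remainder is oxidised to carbon dioxide through formaldehyde and formate dehydrogenases. Genes of this pathway are known for very strong transcription on methanol and for repression by glucose. Lactate dehydrogenase reduces pyruvate, the end product of glycolysis, to lactate. The files pair no native identifier with a gene name, so no native gene below is assigned to this pathway or to any other, and native genes are given by identifier or by coding length.

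Total counts were 8346000 to 14107813 in the LA001-14 methanol libraries and 8108911 to 12622896 in the WT methanol libraries. Replicates of a strain correlated across genes at r = 0.9902 to 0.9916 in log2 CPM (the read count of a gene scaled to library size), against 0.887 to 0.900 between libraries of the 2 strains. The labels call the replicates biological without saying that they came from separate cultures, and they name no batch. All values below are CPM after TMM scaling, which corrects library size for composition, unless a share of raw counts is named. Levels of different genes are compared only as CPM per kb of coding length.

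The introduced LDH transcript separated the strains in the 6 methanol libraries. It stood at 1999, 1746 and 1793 CPM in the LA001-14 libraries, and at 0, 0 and 0.101 CPM in the WT libraries. The WT value is 1 read in WT replicate 3, and the groups did not overlap. From summed reads, 62798 against 1, LDH was 52400-fold higher in LA001-14, a ratio that rests on the single WT read and has a 95% exact (Clopper-Pearson) interval from 9410 to 2070000 (edgeR quasi-likelihood test, Benjamini-Hochberg adjusted p = 9.68e-24). Counting intervals cover counting error only. By the authors' FPKM, which divides by coding length, LDH ranked 102, 105 and 106 among all rows of the 3 LA001-14 libraries. It held 0.191% to 0.206% of their counts.

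The strains differed on methanol in most of the genes tested, and most of these differences were under 2-fold. Of 5466 genes tested, 3592 (65.7%) passed an adjusted p of 0.05, and 68.2% of those differed by less than 2-fold. LA001-14 was higher for 1793 genes (32.8%) and lower for 1799 (32.9%). At least 2-fold differences numbered 532 higher (9.73%) and 609 lower (11.1%). At 4-fold they were 132 higher and 203 lower, and at 16-fold 36 higher and 44 lower. Of the genes at least 2-fold different, the 3 LA001-14 and 3 WT libraries did not overlap for 527 of the higher and 606 of the lower genes. Over all genes tested, called or not, the libraries did not overlap for 71.4%, and the median absolute log2 difference was 0.48. The even split depended on the scaling: when raw library totals replaced TMM, the median log2 difference went from 0.0048 to 0.28, with 2578 genes called higher against 1127 lower, and 882 against 430 past 2-fold. A test against a 2-fold difference itself called 303 genes higher and 396 lower.

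**Figure D1:**
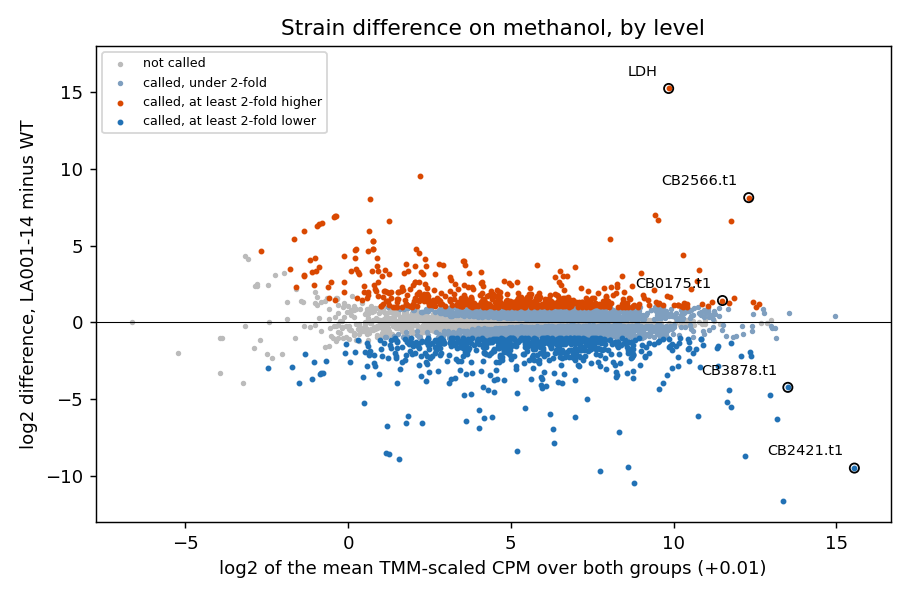
Log2 difference between LA001-14 and WT on methanol (vertical) against the log2 mean TMM-scaled CPM of both groups (horizontal), 1 point per gene, with LDH and 4 native genes ringed. Large differences occur at high levels in both directions, with CB2421.t1 at the far right and a log2 difference of -9.47.

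The 10 native genes with the largest fall in level in LA001-14 were among the leading transcripts of WT on methanol, where they ranked 1 to 23 per kb. These genes, and those with the largest gain, were chosen among called genes whose strains' libraries did not overlap, so that separation is part of the choice. They were ordered by the difference in CPM per kb. A large fall therefore requires a high WT level and a large gain a high LA001-14 level, so high ranks there are part of the choice too. CB2421.t1 (coding length 2121 bases) had the largest fall in level per kb. It stood at 94067, 99664 and 95120 CPM in the WT libraries and at 163, 115 and 127 CPM in the LA001-14 libraries. The WT values are the high ones, and the log2 difference was -9.47 (SE 0.15, edgeR adjusted p = 3.34e-21). It ranked first per kb in WT and 1683 in LA001-14. CB3878.t1 (1128 bases), next by fall in level, stood at 22896, 22458 and 21209 CPM in WT and at 1274, 1147 and 1146 CPM in LA001-14. The log2 difference was -4.22 (SE 0.060, adjusted p = 5.06e-10), and CB3878.t1 went from rank 3 per kb in WT to rank 174.

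The next 8 genes by fall in level, with coding lengths of 384 to 1992 bases, ranged from 5237 to 18433 CPM per kb in WT and from 3.48 to 4085 CPM per kb in LA001-14. Their log2 differences lay between -11.59 and -1.89. A gene of 504 bases stood at 9433, 9276 and 9161 CPM in WT and at 24.7, 21.9 and 20.9 CPM in LA001-14. A gene of 1992 bases stood at 20709, 22434 and 20256 CPM in WT and at 5.93, 7.32 and 7.56 CPM in LA001-14. Both were low on glucose in either strain, at 3.94 ± 0.316 CPM in WT and 6.99 ± 0.809 CPM in LA001-14 for the 504-base gene, and 3.03 ± 0.528 and 8.47 ± 2.37 CPM for the 1992-base gene (SD, n = 3). A gene of 384 bases fell less, from 7001 ± 117 CPM in WT to 1569 ± 103 CPM in LA001-14, and on glucose it stood at 2917 ± 65.3 and 2653 ± 183 CPM. The 10 genes together held 18.7% ± 0.379 of the WT counts and 0.873% ± 0.0287 of the LA001-14 counts on methanol. They were chosen for that difference, so the shares are descriptive.

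The 10 native genes with the largest gain in level in LA001-14 were abundant on glucose in both strains, where they ranked 5 to 101 per kb in WT and 3 to 96 in LA001-14. CB2566.t1 (1647 bases) stood at 38.6, 33.7 and 36.5 CPM in the WT methanol libraries and at 10512, 9955 and 9893 CPM in the LA001-14 libraries. The log2 difference was 8.13 (SE 0.063, edgeR adjusted p = 8.67e-25). It held rank 3338 per kb in WT and rank 11 in LA001-14. CB0175.t1 (546 bases) stood at 1543, 1613 and 1558 CPM in WT and at 4339, 4158 and 4214 CPM in LA001-14. Its log2 difference was 1.43 (SE 0.027, adjusted p = 4.99e-13), and it ranked 49 in WT and 5 in LA001-14. On glucose the means were 3804 ± 440 CPM in WT and 3081 ± 170 CPM in LA001-14 for CB2566.t1, and 5517 ± 221 and 3280 ± 386 CPM for CB0175.t1 (SD, n = 3).

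The next 8 genes by gain in level had coding lengths of 351 to 1842 bases, and ranged from 48.1 to 2991 CPM per kb in WT and from 3773 to 6103 CPM per kb in LA001-14. A gene of 1482 bases had the widest difference among these 8, with 76.4, 59.4 and 77.95 CPM in WT and 7288, 6577 and 6776 CPM in LA001-14 (log2 difference 6.60, SE 0.13, edgeR adjusted p = 4.13e-23). On glucose it stood at 4582 ± 449 CPM in WT and 3116 ± 77.2 CPM in LA001-14. The other 7 differed by 1.03 to 1.64 on the log2 scale. One of them, of 1314 bases, stood at 3930 ± 1.53 CPM in WT and 8019 ± 587 CPM in LA001-14 on methanol, against 23741 ± 3707 CPM in WT and 17944 ± 1158 CPM in LA001-14 on glucose. The 10 genes with the largest gains held 1.32% ± 0.0148 of the WT counts and 5.74% ± 0.0958 of the LA001-14 counts.

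**Figure D2:**
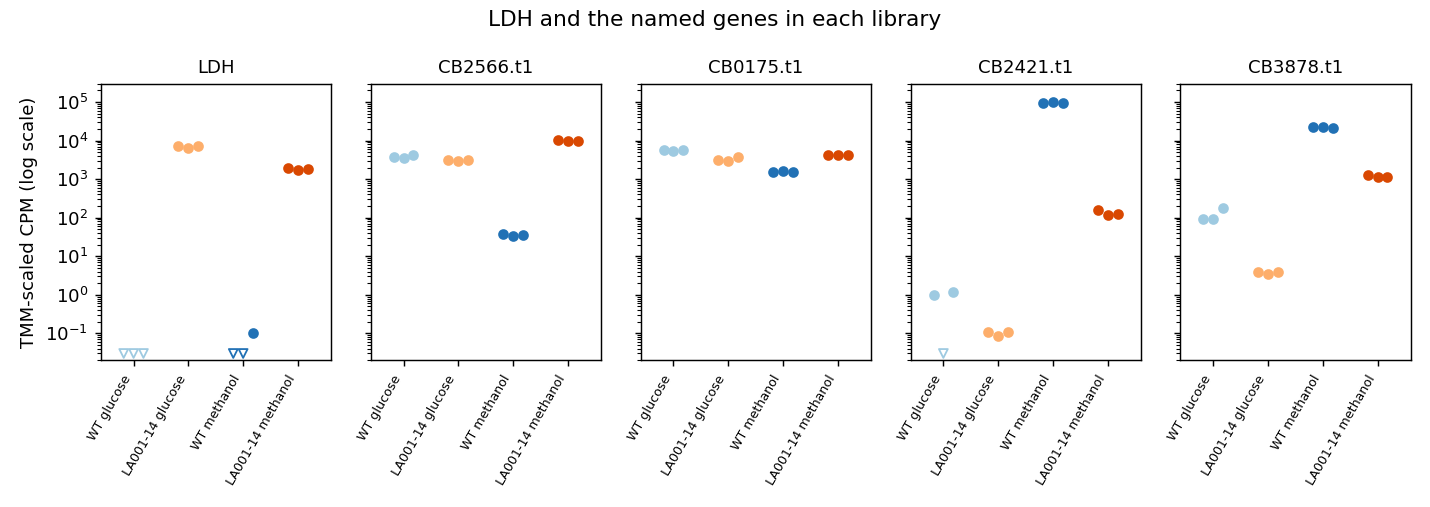
TMM-scaled CPM (log axis) of LDH and 4 native genes in each of the 12 libraries, 1 point per library and 1 colour per group; open triangles at the bottom are libraries with 0 reads. CB2421.t1 and CB3878.t1 are highest in WT on methanol, whereas CB2566.t1 is lowest there, at 33.7 to 38.6 CPM.

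In both directions, the median level of WT on methanol stood apart from that of the other 3 groups. The 609 genes at least 2-fold lower in LA001-14 had a median of 63.8 CPM per kb in WT on methanol and 18.5 in LA001-14 on methanol, beside 19.5 in WT and 17.8 in LA001-14 on glucose. For the 531 native genes at least 2-fold higher, the medians were 8.20 in WT on methanol, 22.0 in LA001-14 on methanol, and 20 (WT) and 25.5 (LA001-14) on glucose. The genes that were not called had medians of 21.4, 21.7, 21.2 and 22.1 in the same order. These medians describe lists chosen on the methanol libraries, and only the glucose values are independent of the choice.

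Each strain's own change from glucose to methanol shares libraries with the strain difference, so its values are given beside it as a description. Of the 609 lower genes, 490 (80.5%) rose on methanol in WT and 49 fell, where 35% of all genes tested rose and 35.3% fell. In LA001-14, 201 of them (33.0%) rose, 198 (32.5%) fell and 210 were not called, where 34.7% of all genes rose and 29.7% fell. Of the 531 higher genes, 482 (90.8%) fell on methanol in WT and 14 rose. In LA001-14, 259 of the 531 (48.8%) fell, 121 (22.8%) rose and 151 were not called. The median log2 change on methanol for the 609 genes was 1.37 in WT and -0.033 in LA001-14, and for the 531 genes it was -1.47 in WT and -0.37 in LA001-14.

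**Figure D3:**
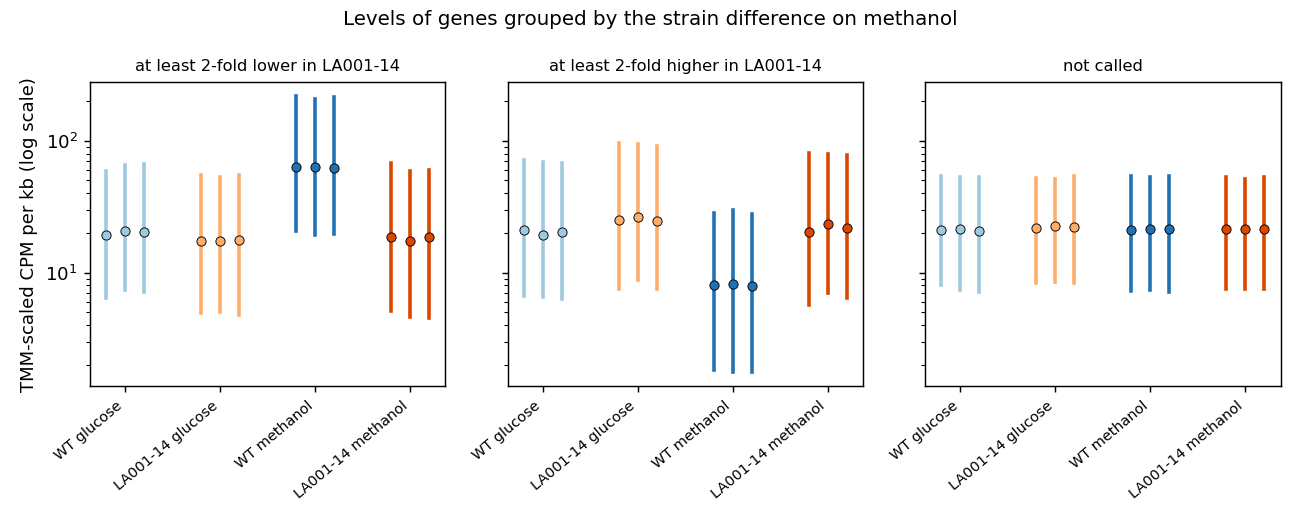
Level in TMM-scaled CPM per kb (log axis) in each of the 12 libraries for genes at least 2-fold lower in LA001-14 on methanol, at least 2-fold higher, and not called; points are medians over genes and bars the middle 50% of genes. In the first panel the 3 WT methanol medians lie at 62.6 to 63.5, above the 17.3 to 18.8 of LA001-14 on methanol, and in the second they lie at 7.86 to 8.24, below 20.2 to 23.4.

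The 609 lower genes held 33.2% ± 0.423 of the counts in WT on methanol and 5.68% ± 0.0228 in LA001-14, while the 531 higher genes held 4.40% ± 0.0166 and 16.3% ± 0.109 (SD, n = 3). On glucose, in libraries that did not choose them, the lower genes held 5.89% ± 0.111 in WT and 7.06% ± 0.0636 in LA001-14, and the higher genes 15.7% ± 0.273 and 16.7% ± 0.143. The 44 genes at least 16-fold lower held 18.6% ± 0.458 of the WT methanol counts and 0.318% ± 0.0115 of the LA001-14 counts. Among these 44 is CB2421.t1, which alone took 8.23% to 8.73% of the WT methanol counts. The WT share therefore does not describe a typical member, and the median of the 44 in WT on methanol was 95.8 CPM per kb. The 35 native genes at least 16-fold higher were sparse in WT, with a median of 0.0384 CPM per kb against 1.73 in LA001-14. At such WT levels few reads were counted, so the size of many of these folds is uncertain. The 35 genes held 2.44% ± 0.0297 of the LA001-14 counts. They include CB2566.t1 and the 1482-base gene, at means of 10120 and 6880 CPM in LA001-14, so this share does not describe a typical member.

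In the 6 methanol libraries, the leading transcripts took a larger share of the reads in WT than in LA001-14. The most abundant row of each WT methanol library, CB2421.t1 in all 3, took 8.23%, 8.73% and 8.44% of the counts, and the most abundant row of each LA001-14 library, a different gene, took 4.13%, 3.79% and 3.89%. The 10 most abundant rows of a library took 20.9% to 21.7% in WT and 12.5% to 13.2% in LA001-14. The groups did not overlap (exact two-sided permutation test, p = 0.1, the smallest that 3 against 3 libraries allow). The top 10 also differed as a share of the authors' FPKM total, at 18.4% ± 0.361 and 12.6% ± 0.265. Further down the list the difference was in reads and not per length: 50% of the counts lay in 128 to 135 rows in WT and 187 to 217 rows in LA001-14, but 50% of the FPKM total lay in 120 to 124 and 118 to 128 rows.

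The strains also differed in which transcripts led. Ranked per kb, 2 of the 10 leading genes were shared between the strains on methanol, 24 of 50, 65 of 100 and 406 of 500. On glucose the same counts were 7, 38, 86 and 413. Of the 10 leading genes of WT on methanol, 8 were at least 2-fold lower in LA001-14 and 0 at least 2-fold higher, and of its 100 leading genes 24 were lower and 9 higher. Of the 10 leading genes of LA001-14 on methanol, 1 was at least 2-fold higher there than in WT and 0 lower, and of its 100 leading genes 23 were higher and 2 lower. Over all genes tested 11.1% were at least 2-fold lower and 9.73% higher. A list chosen for high level in a strain leans toward genes higher in that strain, so these counts are descriptive. Of the 100 leading genes of LA001-14 on methanol, 83 were also among the 100 leading genes of WT on glucose, and of those of WT on methanol 60 were.

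**Figure D4:**
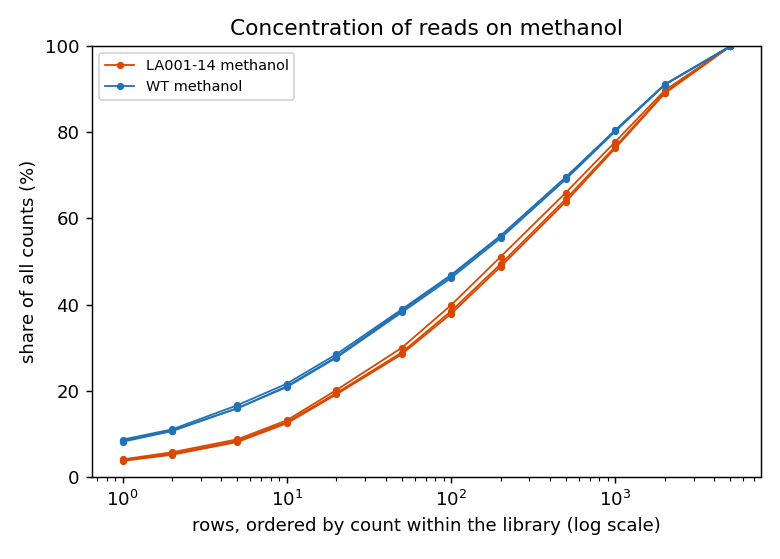
Share of all counts (%) held by the most abundant rows, against the number of rows taken (log axis), 1 line for each of the 6 methanol libraries. The 3 WT lines lie above the 3 LA001-14 lines from 1 to 2000 rows, with 20.9% to 21.7% against 12.5% to 13.2% at 10 rows.

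A few native genes had reads in a single strain on methanol. Over all rows other than LDH, 35 had no read in the 3 WT libraries and at least 1 in LA001-14, 31 had the reverse, and 76 had no read in either. Their read numbers were low: the highest sum over 3 libraries was 303 reads in LA001-14 for a gene with no WT read, and 165 in WT for the reverse. A count of 0 in the 3 libraries of a strain allows up to 3 reads over them, so these genes are not shown to be silent.

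Some genes that differed on methanol differed in the same direction on glucose, in a comparison that shares no library with the one on methanol. Of the 531 genes at least 2-fold higher on methanol, 275 (51.8%) were also higher in LA001-14 on glucose, 103 (19.4%) were lower and 153 were not called. Over all genes 30.9% were higher on glucose and 31.7% lower, with 62.6% called. Of the 609 genes at least 2-fold lower on methanol, 242 (39.7%) were lower on glucose, 149 (24.5%) were higher and 218 were not called. The median log2 strain difference on glucose was 0.44 for the 531 genes and -0.17 for the 609 genes, beside 0.011 for all native genes tested. The genes with the largest changes in level leaned the other way. Of the 10 with the largest fall, 6 were higher in LA001-14 on glucose and 3 lower. Of the 10 with the largest gain, 2 were higher and 6 lower. The strain difference moved with coding length on both carbon sources, as given below. Median coding length was 1692 bases for the 531 genes and 1218 bases for the 609 genes. The part of length in the shared direction was not tested.

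Whether the strain difference differed between carbon sources was tested as an interaction, which called 3206 genes (58.7%). The LA001-14 minus WT difference was more positive on methanol than on glucose for 1681 of them (30.8%) and more negative for 1525 (27.9%). Among the 609 lower genes the interaction was negative for 461 and positive for 24, and among the 531 higher genes it was positive for 413 and negative for 5. The interaction shares the methanol libraries that chose these genes, so these counts are descriptive. CB2566.t1 and CB0175.t1 went the opposite way on glucose, with log2 strain differences of -0.30 (SE 0.11, edgeR adjusted p = 0.00424) and -0.75 (SE 0.10, adjusted p = 4.60e-08). Their interactions were 8.43 (SE 0.12, adjusted p = 2.99e-23) and 2.18 (SE 0.10, adjusted p = 1.24e-13). CB2421.t1 had only 22 reads over the WT glucose libraries and 3 over the LA001-14 glucose libraries, and its interaction of -6.71 (SE 0.91, adjusted p = 0.00667) rests on these. So does its strain difference on glucose, which was also called lower in LA001-14 (log2 difference -2.77, SE 0.89, edgeR adjusted p = 0.0136). Both SEs of CB2421.t1 come from log2 CPM with 2 reads added, while the differences come from the edgeR fit. At so few reads they do not measure the error of these differences.

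CB3878.t1 was likewise lower in LA001-14 on both carbon sources, with more reads on glucose, 3560 in WT and 114 in LA001-14. On glucose it stood at 92.9, 95.1 and 180 CPM in WT and at 3.97, 3.53 and 3.89 CPM in LA001-14, a log2 difference of -5.01 (SE 0.31, edgeR adjusted p = 2.68e-09) beside -4.22 on methanol. WT replicate 3 was the highest of its group, and all 3 lay above LA001-14. The interaction of 0.79 (SE 0.32) did not pass the test (adjusted p = 0.0777), and this depended on the scaling and on the WT glucose libraries. With library totals it was 0.84 (adjusted p = 0.0216), without replicate 1 it was 0.93 (adjusted p = 0.0372), without replicate 2 0.94 (adjusted p = 0.0139) and without replicate 3 0.41 (adjusted p = 0.0320). DESeq2 gave 0.76 (adjusted p = 0.0448). The other 14 alternatives left the interaction uncalled, with RLE scaling (edgeR adjusted p = 0.0949) and upper quartile scaling (edgeR adjusted p = 0.0552) among them.

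**Figure D5:**
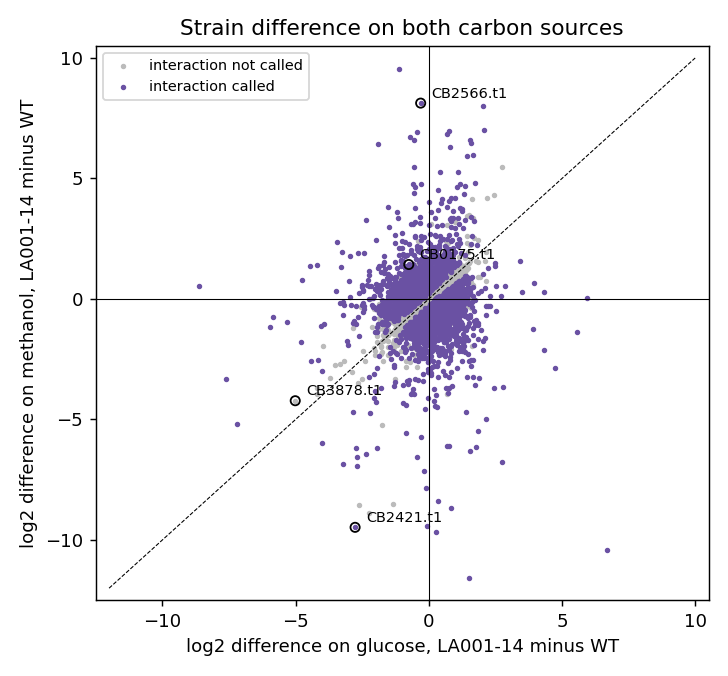
Log2 difference between LA001-14 and WT on methanol (vertical) against that on glucose (horizontal) for 5465 native genes, coloured by the interaction test; the dashed line marks equal differences. CB3878.t1 lies near that line, while CB2566.t1 is far above it.

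The strain difference moved with coding length. Among the shortest 1094 genes tested (156 to 786 bases) the median log2 difference on methanol was -0.22, with 73 genes at least 2-fold higher and 155 at least 2-fold lower. Among the longest 1093 (2592 to 15030 bases) it was 0.24, with 142 higher and 61 lower. The 3 length groups between had medians of -0.089, -0.014 and 0.042. Relative to the mean log2 CPM of the 6 methanol libraries, the longest genes had median deviations of 0.0351, 0.178 and 0.148 in the LA001-14 libraries and of -0.115, -0.0974 and -0.135 in the WT libraries, and LA001-14 replicate 1 was the closest to 0. On glucose the shortest genes had a median strain difference of -0.27 and the longest 0.11. The part of RNA integrity or library preparation in this was not tested. With the length trend removed from each library, a setting chosen after seeing the data, 523 genes were at least 2-fold higher and 576 lower, and 464 and 545 of these were shared with the 532 and 609. The shortest group then held 106 higher and 119 lower genes, and the longest 80 and 83.

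The share of genes called rose with level. Among the 1094 genes of lowest mean level (up to 10.8 CPM per kb over all 12 libraries), 47.9% were called, and among the 1093 of highest level (from 111 CPM per kb) 80.4% were. The median absolute log2 difference was 0.64 in the lowest group, 0.42 to 0.45 in the 3 between and 0.53 in the highest. Genes at least 2-fold different were most frequent at both ends, with 17.3% higher and 13.7% lower in the lowest group and 9.06% higher and 14.0% lower in the highest.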

How the data were processed

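Per the labels' protocols, total RNA was isolated with Trizol, phenol and chloroform and treated with DNase on a column. Each of 12 files holds 1 library with raw read counts per coding sequence, which the authors deposited without normalization, and FPKM values. The deposited FPKM differed by at most 2.4e-06 percent from counts divided by coding length and total count. The submitters' processing notes list Bowtie2 2.5.4. How reads were counted, the strand setting, the build and the annotation were not found in the labels or files used here.

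The count test was edgeR 4.0.16 (R 4.3.3): filterByExpr on the 4 groups (5466 of 5712 rows kept, 45 removed rows without any read), TMM scaling, and a robust quasi-likelihood fit of all 12 libraries with 1 mean per group (common biological coefficient of variation 0.0938). A gene counted as called below 0.05 after Benjamini-Hochberg adjustment over all genes tested. Standard errors were computed from the SDs of log2 CPM in each group, after adding 2 reads to every count. The log2 differences come from the edgeR fit, so an SE does not measure their error where reads are few. The p-values rest on spread between libraries, which may be technical.

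Native genes were named by the largest difference in mean CPM per kb in each direction, among called genes at least 2-fold different and without overlap, with identifiers for the first 2 per direction and values alone for the next 8. Gene lists by pathway could not be counted without names. The comparison, lists and rules were chosen with earlier results of these data known. Alternatives covered scaling, filters, DESeq2 1.42.0, the methanol libraries alone, the replicate number as a block, single libraries left out and, added later, coding length.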

Additional observations from a re-analysis of the deposited data

Results flagged for a closer look

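The strain difference on methanol differed from that on glucose by a test of the difference itself for 3206 genes (58.7% of those tested). It also did so for 3 of the 4 named native genes. Those 4 were chosen on the methanol libraries, which the interaction shares, so their count is descriptive. The interaction on the log2 scale was 8.43 for CB2566.t1, 2.18 for CB0175.t1 and -6.71 for CB2421.t1. With CB2421.t1 the glucose side rests on 22 WT reads and 3 LA001-14 reads.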

How the results depend on the processing

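The count of 3592 genes called on methanol fell each time a single methanol library was left out, to between 3301 and 3457. Without single libraries, the genes at least 2-fold higher numbered 517 to 551 and those lower 592 to 630, the glucose count was 3135 to 3428 and the interaction count 3023 to 3194. Library totals moved the 2-fold higher genes to 882 and all lower genes to 1127, and the test against 2-fold itself left 303 higher and 396 lower. As shares of FPKM the difference in the top 10 was -5.80 percentage points (-8.38 as counts), and that in rows holding 50% was 1.67 (73 as counts). No pairing by replicate number was seen. Deviations of same-numbered methanol libraries from their group means correlated at -0.013 to 0.039, and those of differently numbered ones at -0.089 to 0.053. Not every library correlated best with its own number. With 3 libraries per group these values cannot exclude pairing. With the replicate number as a block, 3520 genes were called in all 12 libraries, against 3592 without it. In the methanol libraries alone 3703 were called, against 3720 without it, and no named gene's methanol call changed. The methanol differences of LDH and the 4 named native genes kept their direction and call under every alternative in which they were recorded. Their calls in the test against 2-fold itself were not recorded. CB2421.t1 and CB3878.t1 were not tested without the 20 most abundant rows. The fitted LDH difference rose from 15.23 to 17.19 without WT methanol replicate 3, which holds the single WT read. Depth limits the sparse genes, with a limit of 3 reads at 0.213 to 0.370 CPM per methanol library. These limits use raw library totals, without TMM scaling.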

Other observations

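Neighbouring identifier numbers were compared for genes at least 2-fold different on methanol. Of 580 lower genes whose next number was also tested, 109 (18.8%) were followed by a lower gene, where 10.9% of all such next genes were lower. Of 512 higher genes, 77 (15%) were followed by a higher gene, where 9.62% of all next genes were. The files do not say whether the numbers follow chromosomal order.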
